A study of Equus caballus with 4 samples.

Results

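The p38 mitogen-activated protein kinases and the kinases that act directly before and after them were followed in differentiating equine satellite cells exposed to gamma-oryzanol (GO). The list held 9 genes: the p38 kinases *mapk14* (p38 alpha), *mapk11* (p38 beta), *mapk12* (p38 gamma) and *mapk13* (p38 delta), the activating kinases *map2k3* and *map2k6*, the upstream kinase *map3k5*, and the p38-activated kinases *mapkapk2* and *mapkapk3*. Probes were taken where the gene name in the array files matched one of these symbols, ignoring case. This gave 8 probes for 7 of the 9 genes, out of 14591 gene symbols and 43603 non-control probes. Probes under the names *mapk13* and *mapkapk2* were not found in this way, and *mapkapk2* was reached through the gene descriptions in the files.

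Signals such as oxidative stress or cytokines start p38 signaling through MAP3 kinases, among them MAP3K5 (also called ASK1). These phosphorylate MAP2K3 and MAP2K6, which in turn phosphorylate and switch on the p38 kinases. In skeletal muscle, p38 alpha is known for driving myoblasts out of the cell cycle and into differentiation, partly by acting on MEF2 transcription factors, and p38 gamma is abundant in muscle. Activation of p38 is a phosphorylation, which an mRNA array does not measure.

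The cells came from the *semitendinosus* muscle of horses and were on the 3rd day of differentiation. GO-treated cells had received 125 nM GO in DMSO (0.04 µl/ml) after the 2nd day, for 24 h, and control cells had received the same dose of DMSO alone. Per the methods, satellite cells were isolated from several 6-month-old colts, the line scoring best for viability and fusion was taken further, and the RNA samples of highest integrity (RIN of at least 9.2) were used. The sources do not say whether the 4 arrays, labelled as biological replicates, hold different horses or separate cultures of 1 line, so p-values measure only the spread between these samples.

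Each of the 4 arrays carried cRNA of GO-treated cells in Cy5 and of control cells in Cy3, all on 1 slide and without a dye swap. Dye and GO therefore cannot be told apart at any probe. Between 57.4% and 67.0% of non-control spots were well above background in the GO channel, and between 63.5% and 68.9% in the control channel. Of the muscle markers, 10 of 12 listed genes had a probe, and 10 of these 10 were well above background in control cells. Among markers of other cells, 6 of the 7 fibroblast genes with a probe were above background, as were 3 of 5 for leukocytes (*cd68* and *cd14* among them), 0 of 5 for endothelium, 0 of 3 for adipocytes and 0 of 3 for epithelium.

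The probes whose target is at issue below are shown here as the array files print them, 60 bases each, 5′ to 3′. The named p38 kinase probes come first, so that they can be read against the run that rose. The last lines are the first and last of 5 overlapping probes on chromosome 20 to which the files give no gene name. Their capitals mark the 54 bases that all 5 hold in common.
*mapk14* A_69_P038636: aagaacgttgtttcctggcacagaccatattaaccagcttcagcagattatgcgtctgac
*mapk14* A_69_P038631: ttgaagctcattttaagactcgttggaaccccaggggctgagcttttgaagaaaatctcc
*mapk11* A_69_P021981: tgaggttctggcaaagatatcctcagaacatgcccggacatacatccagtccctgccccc
*mapk12* A_69_P021976: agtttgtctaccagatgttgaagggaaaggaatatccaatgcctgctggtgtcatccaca
unnamed A_69_P120480: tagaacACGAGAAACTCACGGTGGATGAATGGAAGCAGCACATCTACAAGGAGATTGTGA
unnamed A_69_P120476: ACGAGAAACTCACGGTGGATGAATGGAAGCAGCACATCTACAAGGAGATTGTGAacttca

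Of the 8 probes named for the cascade, 7 were bright enough to be tested, and 1 of the 7 passed both thresholds. These were 0.05 for the adjusted p and 1.3 for the fold change, which is 0.38 on the log2 scale. Over all 26832 probes tested, 8.94% passed both, 3.33% higher and 5.61% lower in GO-treated cells, and 18.1% passed the adjusted p alone. The probe that passed was *map3k5*, which was higher. The median log2 ratio of the 7 probes was -0.08, beside 0.0047 for all probes tested, whose quartiles were -0.13 and 0.13. The RNA is that of whole cultures, so fewer cells of a kind and less RNA per cell cannot be told apart in any of these ratios.

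**Figure D1:**
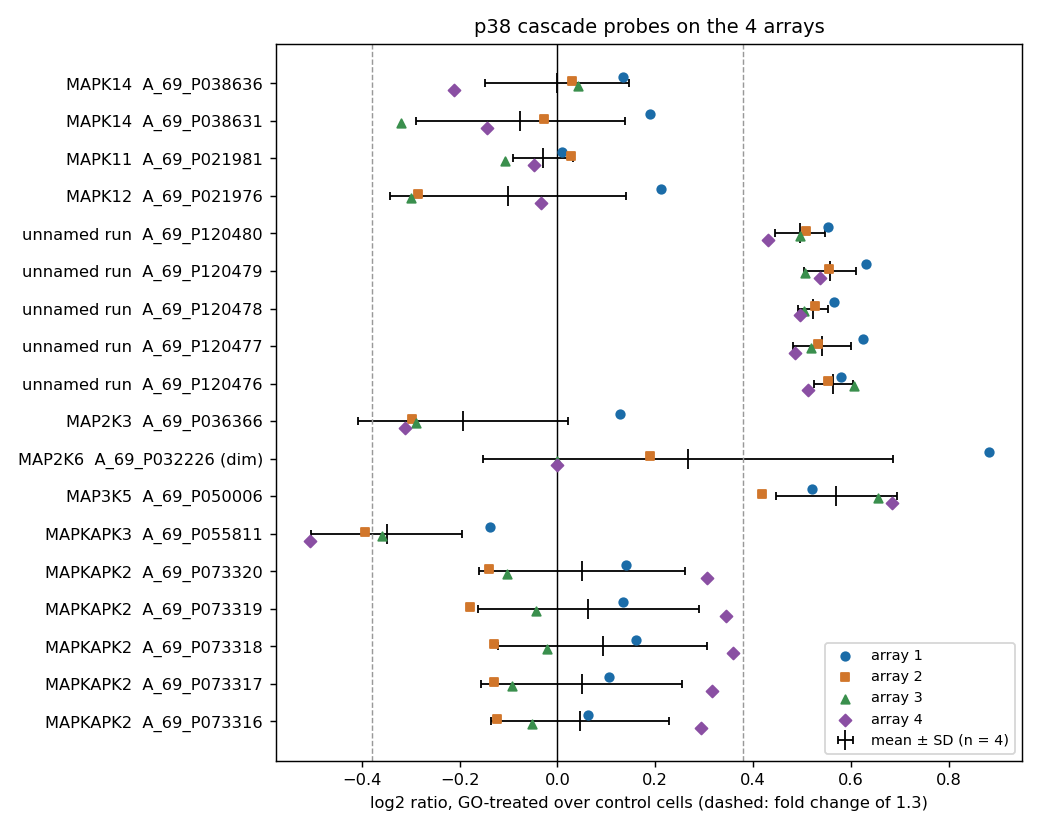
Log2 ratios (x axis, GO-treated over control cells) of each probe named for the p38 cascade, of the 5 *mapkapk2* probes found by description and of the 5 unnamed probes on chromosome 20, with a marker for each of the 4 arrays and the mean ± SD. The *map3k5* probe and the unnamed run lie above the dashed line for a 1.3-fold rise on all 4 arrays, while the probes named *mapk14*, *mapk11* and *mapk12* lie around 0.

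The *map3k5* probe lies at chr10:76803671-76803730 on the minus strand of EquCab1, the build of the probe positions. MAP3K5 is held inactive by thioredoxin and is released by oxidants. The processed Cy3 signals of control cells on arrays 1 to 4 were 4640, 3718, 4092 and 3271 intensity units, and the Cy5 signals of GO-treated cells were 6656, 4970, 6449 and 5255. The GO signal was above the control signal on each of the arrays, and the lowest GO signal was also above the highest control signal.

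On the log2 scale the *map3k5* ratios were 0.52, 0.42, 0.66 and 0.68. The mean was 0.57 ± 0.12 (SD, n = 4), a 1.48-fold rise, with a 95% interval of 0.41 to 0.73 (limma, Benjamini-Hochberg adjusted p = 0.00536). All arrays were past the 1.3-fold line, array 2 the least. With a plain one-sample test of the ratios in place of limma, the adjusted p was 0.0696.

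The thioredoxin gene *txn*, whose product binds MAP3K5, had log2 ratios of -0.07, -0.02, 0.01 and -0.03. Its mean was -0.03 ± 0.03 (SD, n = 4; limma adjusted p = 0.745). Its arrays stayed close to 0 and on both sides of it.

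The kinases that pass the signal from MAP3 kinases to p38 are MAP2K3 and MAP2K6. The *map2k3* probe (chrUn:247031076-247031135, plus strand) gave log2 ratios of 0.13, -0.30, -0.29 and -0.31. Arrays 2 to 4 lay within a narrow range below 0 and array 1 above it. The mean was -0.19 ± 0.21 (SD, n = 4), with a 95% interval of -0.41 to 0.02 and an adjusted p of 0.176 in limma. Without array 1 the mean was -0.30 with an adjusted p of 0.0317, still short of the 1.3-fold threshold.

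The *map2k6* probe (chr11:10159934-10159993, minus strand) was well above background on 1 array in each channel and was not tested. Its log2 ratios were 0.88, 0.19, 0.00 and 0.00, a mean of 0.27 ± 0.42 (SD, n = 4). The zeros of arrays 3 and 4 do not match their signals, 3.06 and 3.55 in control and 5.04 and 7.26 in GO-treated cells. The mean is therefore not read as a measured change. On array 1 the signals were 6.0 in control and 11.1 in GO-treated cells, both at the dim end of the scale.

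**Figure D2:**
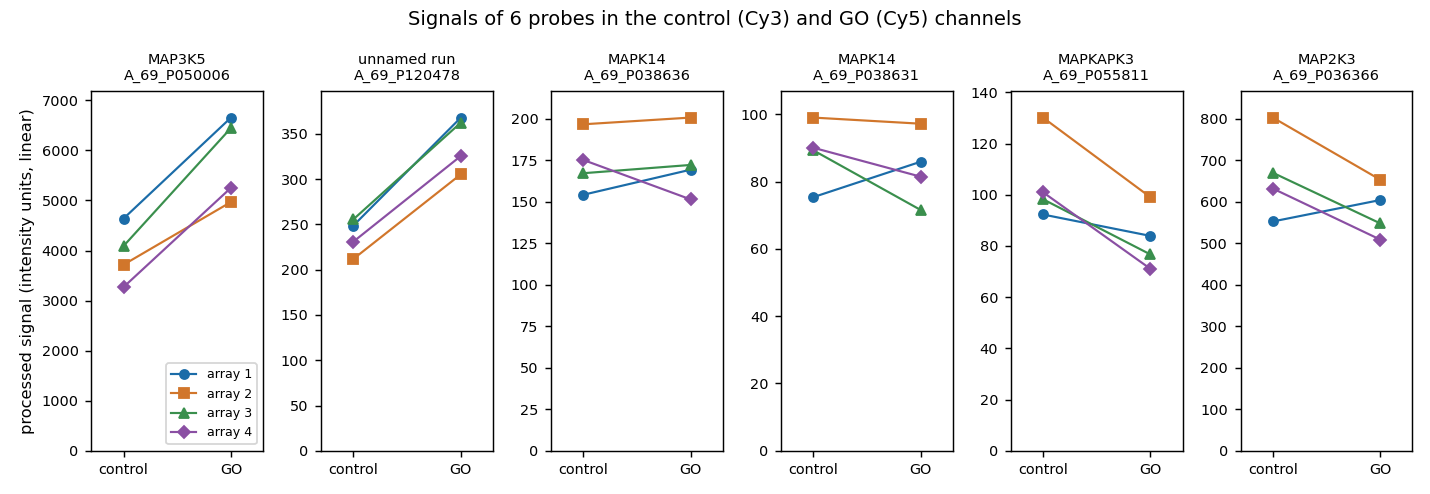
Processed signals (y axis, linear intensity units, each panel with its own scale from 0) of 6 probes in the control channel (Cy3) and the GO channel (Cy5), with 1 line for each of the 4 arrays. The lines of *map3k5* and of the unnamed probe A_69_P120478 go up on all 4 arrays, those of *mapkapk3* go down on all 4, and those of *mapk14* cross or run flat.

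Both probes named *mapk14*, the p38 kinase best known from myoblast differentiation, gave ratios around 0. Probe A_69_P038636 spans chr20:29510873-29525468 on the plus strand, a distance of 14596 bases for a probe of 60 bases, so its target is joined from separate stretches of the genome. Probe A_69_P038631 lies at chr20:29521142-29521201 on the same strand, within the span of the first. The files assign the probes to different transcripts, ENSECAT00000015735 and ENSECAT00000015606.

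Probe A_69_P038636 had log2 ratios of 0.14, 0.03, 0.04 and -0.21, and a mean of -0.0009 ± 0.15 (SD, n = 4). Its 95% interval was -0.18 to 0.17, with a limma adjusted p of 0.994. Arrays 1 to 3 were slightly above 0 and array 4 below.

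Probe A_69_P038631 had log2 ratios of 0.19, -0.03, -0.32 and -0.14, with a mean of -0.08 ± 0.21 (SD, n = 4). The interval was -0.29 to 0.14 and the limma adjusted p was 0.586. For both named probes the interval leaves out a rise of 1.3-fold, and for both the sign of the mean rests on a single array: it was 0.069 without array 4 for the first and 0.0057 without array 3 for the second.

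Past the *mapk14* probes on the same strand lies a run of 5 probes that the array files leave without a gene. The first of them, A_69_P120480, spans chr20:29559924-29560237 and the last, A_69_P120476, spans chr20:29559930-29560243. The middle ones are A_69_P120479 (chr20:29559925-29560238), A_69_P120478 (chr20:29559927-29560240) and A_69_P120477 (chr20:29559928-29560241). Each spans 314 bases of the genome, 254 more than the probe is long, so these targets too are joined across a gap. The study's own annotation gave the name *mapk14* to some probes of the run. Its list of changed genes has *mapk14* as higher in GO-treated cells, whereas neither probe named *mapk14* in the array files passed a threshold here.

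On EquCab1 the run starts 34.456 kb past the end of the last named *mapk14* probe. It ends 85.922 kb before the probe of the next gene named on the array, *brpf3*. RefSeq's gene list for the TB-T2T assembly has 1 protein-coding gene between *mapk14* and *brpf3*, which is *mapk13*, the p38 delta gene. The list gives gene order on another assembly and no sequence, and the probes were not matched to reference transcripts or proteins. Whether the run measures *mapk13*, a further part of *mapk14* or something else was therefore not determined here. No other non-control probe of the array shared 20 bases in a row with the run.

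All 5 probes of the run were higher in GO-treated cells and passed both thresholds. They share most of their bases, so they amount to 1 measurement rather than 5. When the raw signals were corrected with normexp and loess instead, 3 of them fell short of the fold threshold, A_69_P120480 (0.32), A_69_P120478 (0.36) and A_69_P120476 (0.37). With the channels unpaired, the adjusted p was 0.0615 for A_69_P120480 and 0.0673 for A_69_P120477. Probe A_69_P120480 had log2 ratios of 0.55, 0.51, 0.50 and 0.43 on arrays 1 to 4, a mean of 0.50 ± 0.05 (SD, n = 4). Probe A_69_P120476, at the other end, had 0.58, 0.55, 0.61 and 0.51, a mean of 0.56 ± 0.04 (SD, n = 4). The ratio of every array was above the 1.3-fold line on both probes.

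The means of the 5 probes lay between 0.50 and 0.56, which are rises of 1.41-fold to 1.48-fold, and the limma adjusted p-values lay between 0.00306 and 0.00479. Averaged over the probes, the run had 0.59, 0.54, 0.53 and 0.49 on the arrays, or 0.54 ± 0.04 (SD, n = 4). Taken singly, the probes of the run had SDs between 0.03 and 0.06, small beside the median SD of 0.14 over all probes tested. On the probe A_69_P120478 the control signals were 249, 212, 256 and 231 intensity units and the GO signals were 368, 305, 362 and 326, which do not overlap.

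Set beside the run, the average of the named *mapk14* probes was 0.16, 0.00, -0.14 and -0.18 on the arrays, or -0.04 ± 0.15 (SD, n = 4). The run exceeded it by 0.43, 0.53, 0.66 and 0.67, or 0.57 ± 0.12 (SD, n = 4). The difference was thus in the same direction on every array. It is given as a description, since the disagreement of the probes was known beforehand.

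**Figure D3:**
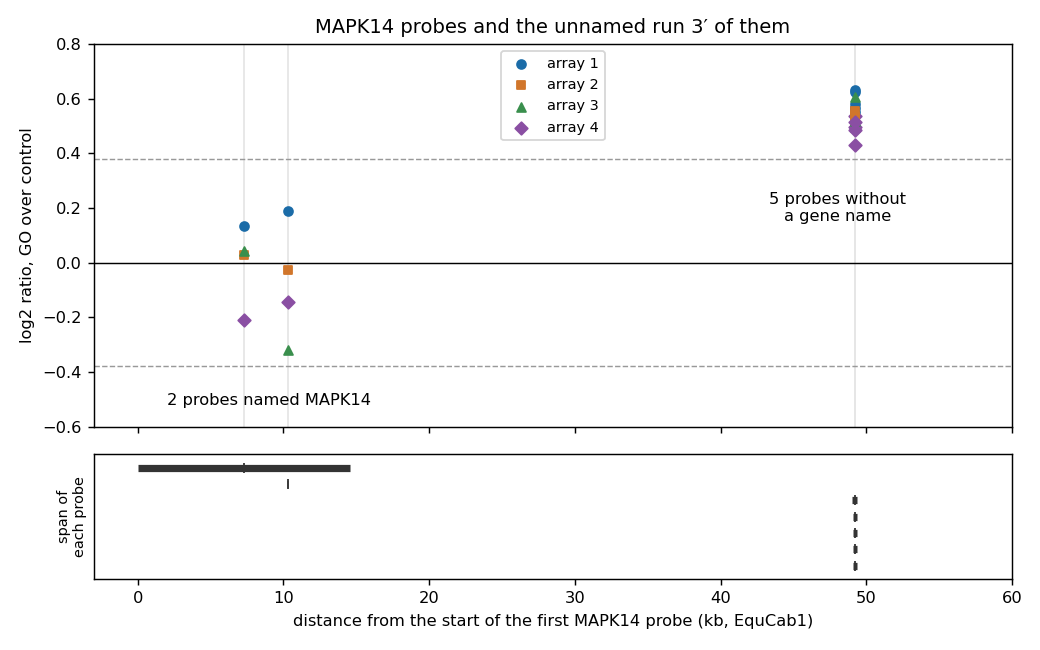
Top, log2 ratios (y axis, GO over control) on the 4 arrays of the probes named *mapk14* and of the unnamed run, placed at the middle of each probe's span by the distance in kb from the start of the first probe on EquCab1. Bottom, the span of each probe. The named probes scatter around 0 and the 5 overlapping probes further along lie above the dashed 1.3-fold line.

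The genes of p38 beta and p38 gamma are neighbors. The *mapk12* probe spans chrUn:294105582-294105775 and the *mapk11* probe spans chrUn:294114858-294115373, both on the minus strand, with start positions 9.276 kb apart. The *mapk11* log2 ratios were 0.01, 0.03, -0.11 and -0.05, a mean of -0.03 ± 0.06 (SD, n = 4). They straddled 0, and the interval of -0.17 to 0.11 leaves out a 1.3-fold change either way (adjusted p = 0.748 in limma). The *mapk11* signals were low, 37.2 to 75.1 units in control and 36.0 to 69.7 in GO-treated cells, though well above background on all 4 arrays.

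The *mapk12* log2 ratios were 0.21, -0.28, -0.30 and -0.03. The mean was -0.10 ± 0.24 (SD, n = 4), with an interval of -0.33 to 0.13 and an adjusted p of 0.498 in limma. Array 1 was above 0 and the others were below it, the same split as for *map2k3*. None of the *mapk14*, *mapk11* and *mapk12* probes passed either threshold.

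Among the kinases that p38 switches on, *mapkapk3* had a ratio below 0 on each array. MAPKAPK3 is a close relative of MAPKAPK2 (MK2), and both take part in controlling the stability of cytokine mRNAs. The *mapkapk3* probe, shown because it was the 1 probe of the list past the adjusted p threshold in the lower direction, lies at chr16:36658780-36658839 on the minus strand.
*mapkapk3* A_69_P055811: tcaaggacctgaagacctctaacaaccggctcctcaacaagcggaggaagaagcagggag

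The *mapkapk3* log2 ratios were -0.14, -0.39, -0.36 and -0.51, with array 1 nearest to 0. The mean was -0.35 ± 0.15 (SD, n = 4), with an interval of -0.53 to -0.17 and a Benjamini-Hochberg adjusted p of 0.0260 in limma. This is a 1.27-fold difference, below the threshold of 1.3, so the gene was not counted as changed. Without array 1 it passed both thresholds (-0.42, adjusted p = 0.0210). The adjusted p was 0.104, 0.0892 and 0.0748 without array 2, 3 and 4, 0.0932 without the filter on dim probes, 0.122 with a plain one-sample test and 0.296 with the channels unpaired. The control signals were 92.3, 130, 98.3 and 101 and the GO signals were 83.9, 99.0, 76.7 and 71.1, so the channels overlap between arrays but not within one.

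The 5 probes described as *mapkapk2* lie between 2965970 and 2966033 on the plus strand of chromosome 5 and share 56 bases, so they too are 1 measurement. Their mean over probes was 0.12, -0.14, -0.06 and 0.32 on the arrays, or 0.06 ± 0.21 (SD, n = 4). Arrays 1 and 4 were above 0 and arrays 2 and 3 below. The limma adjusted p-values ran from 0.502 to 0.728. The other p38-activated kinases tested were *rps6ka5* (MSK1), with a mean of -0.17 ± 0.33, and *mapkapk5*, with a mean of 0.00 ± 0.14 (SD, n = 4), and neither passed a threshold.

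Other genes of the cascade were counted from lists by role, with the brightest probe standing for each gene. Of 64 listed genes, 48 had a probe and 38 were tested. None of them was called higher and 2 were called lower, beside 3.30% and 5.37% (together 8.67%) of all 9501 genes tested. A further 5 met the adjusted p alone, which makes 7 of 38, beside 17.2% of all genes. The median log2 ratio of the 38 genes was -0.10, beside 0.0022 for all genes.

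Of the other MAP3 kinases that can feed p38, 7 were tested with limma and 0 were called, with 1 at an unadjusted p under 0.05, which 34.7% of all genes tested had. Their means ran from -0.20 (*taok1*, adjusted p = 0.0596 in limma) to 0.17 (*map3k6*, a relative of *map3k5*, adjusted p = 0.308). The log2 ratios of *map3k6* were 0.20, -0.16, 0.12 and 0.51, and so were not above 0 on every array. The mean of *map3k7* (TAK1) was -0.10 ± 0.12 (SD, n = 4). A further 2 were too dim to be tested. *Map3k8* (TPL2), well above background on 3 of the 4 arrays in each channel, had log2 ratios of 0.52, 0.58, 0.57 and 1.00. Its mean of 0.67 ± 0.22 (SD, n = 4) was larger than that of *map3k5*, and it was above 0 on every array. In the fit without the filter on dim probes its adjusted p was 0.0640 in limma, and that of *map3k5* was 0.0410. *Map3k12* was above background on none of the arrays.

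Partners and sensors that act on MAP3 kinases had 8 tested genes, all with means below 0 (median -0.23), where 49.5% of all genes tested had a mean below 0. In limma 0 of them were called, and 5 had an unadjusted p under 0.05, beside 34.7% of all genes. *Gadd45a*, a stress-induced activator of MAP3K4, had log2 ratios of -0.45, -0.21, -0.30 and -0.25 (mean -0.30, adjusted p = 0.0247 in limma). *Tab2*, an adaptor of TAK1, had -0.35, -0.35, -0.37 and -0.15 on its brightest probe (mean -0.30, adjusted p = 0.0240). Both were below 0 on every array but short of the fold threshold, and the other probes of *tab2* had means of -0.16 and 0.06.

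Phosphatases that switch p38 off had 5 tested genes and 0 calls in limma, with 3 at an unadjusted p under 0.05 (34.7% over all genes). *Dusp1*, the immediate-early phosphatase that removes phosphate from p38, had log2 ratios of 0.28, 0.27, 0.43 and 0.35. It was above 0 on all arrays, with a mean of 0.33 ± 0.07 (SD, n = 4; limma adjusted p = 0.0150), but did not reach a 1.3-fold rise. *Dusp10* (MKP5) spread widely, with -0.76, -0.48, 0.00 and -0.04 and a mean of -0.32 ± 0.36 (adjusted p = 0.138).

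Substrates of p38 and MK2 held both calls, among 16 tested genes with a median of -0.09. *Eef2k*, the kinase that slows translation elongation and is restrained by p38 delta, had -0.06, -0.41, -0.65 and -0.52. Array 1 was near 0 and the others were lower, with a mean of -0.41 ± 0.25 (SD, n = 4; adjusted p = 0.0374 in limma). Leaving out array 2, 3 or 4 ended the call of *eef2k*. Without array 3, *tab3*, another adaptor of TAK1, passed both thresholds. On all 4 arrays it had log2 ratios of -0.56, -0.34, -0.01 and -0.48 (mean -0.35, adjusted p = 0.0531).

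Of the MEF2 factors listed, through which p38 acts on muscle genes, *mef2c* and *mef2a* were measured and had ratios below 0 on all arrays. No probe was found under the name *mef2d*. *Mef2c* had -0.46, -0.36, -0.22 and -0.31 on its brightest probe (mean -0.34, adjusted p = 0.0173 in limma), short of the fold threshold. Its other probe had -0.81, -0.63, -0.38 and -0.70, and passed both thresholds (mean -0.63, adjusted p = 0.00622). *Mef2a* had a mean of -0.26 ± 0.09 (SD, n = 4; adjusted p = 0.0339). The small heat shock protein gene *hspb1*, a classical target of MK2, had a mean of -0.18 ± 0.12 (adjusted p = 0.108), and *atf2* had -0.01 ± 0.11 (adjusted p = 0.956).

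**Figure D4:**
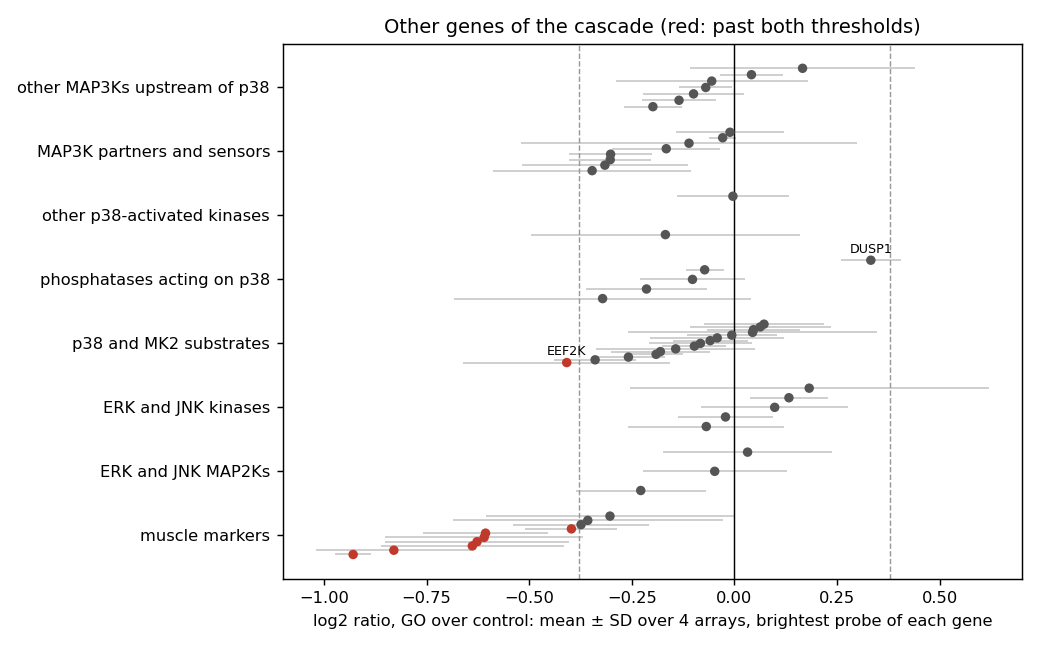
Mean log2 ratio ± SD over the 4 arrays (x axis, GO over control) of the tested genes in each list of the cascade, in the ERK and JNK lists and in the muscle marker list, 1 point per gene. Red points passed both thresholds: *eef2k* in the substrates and 7 of 10 muscle markers. Of the substrates, 1 is not drawn.

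In the sister cascades, 5 ERK and JNK kinases (median 0.10) and 3 of their MAP2 kinases (median -0.05) were tested. In limma 0 were called (8.67% over all genes), and 1, *map2k4*, had an unadjusted p under 0.05 (34.7% over all genes). *Map2k4*, which can act on both JNK and p38, had a mean of -0.23 ± 0.16 (SD, n = 4; adjusted p = 0.0807 in limma). The gene names closest to *mapk14* in their 4 log2 ratios, by Euclidean distance from probe A_69_P038636 over 9495 genes, were *znf425* (0.0431), *klc4* (0.0481), *ciapin1* (0.0509), *spryd4* (0.0520) and *aar2* (0.0537). Their mean log2 ratios lay between -0.02 and 0.02.

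The muscle markers of the same arrays moved with GO: 7 of the 10 tested were called lower and 0 higher, beside 5.37% and 3.30% of all 9501 genes tested. Their median log2 ratio was -0.61. *Myf5* (-0.93), *myh3* (-0.83), *acta1* (-0.64), *ncam1* (-0.63), *des* (-0.61), *tnnc1* (-0.61) and *myog* (-0.40) were those called. The other *myog* probe had a mean of -0.36 (adjusted p = 0.0208 in limma), short of the fold threshold. The summed processed signal of the 10 genes came mostly from *myh3* and *acta1*. It was 196155 to 266798 in control and 116809 to 162834 in GO-treated cells. Of 6 fibroblast markers tested, *pdgfra* was called higher (0.87), beside 3.30% of all genes. Its signals were low, 21.8 to 46.4 in control and 42.7 to 69.5 in GO-treated cells. Of all tested probes, 2 of 9 for *col1a2* and 1 of 2 for *dcn* passed both thresholds, in a direction not given here. The brightest probes of *col1a2* and *dcn* had means of -0.05 and 0.04 and were not called. The summed signal of the list, most of it from *col1a2* and *col3a1*, was 275868 to 439993 in control and 285103 to 396928 in GO-treated cells. The 3 leukocyte markers detected summed to 5214 to 6084 and 5680 to 6420. The part of cell makeup in the ratios of the p38 cascade was not tested.

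**Figure D5:**
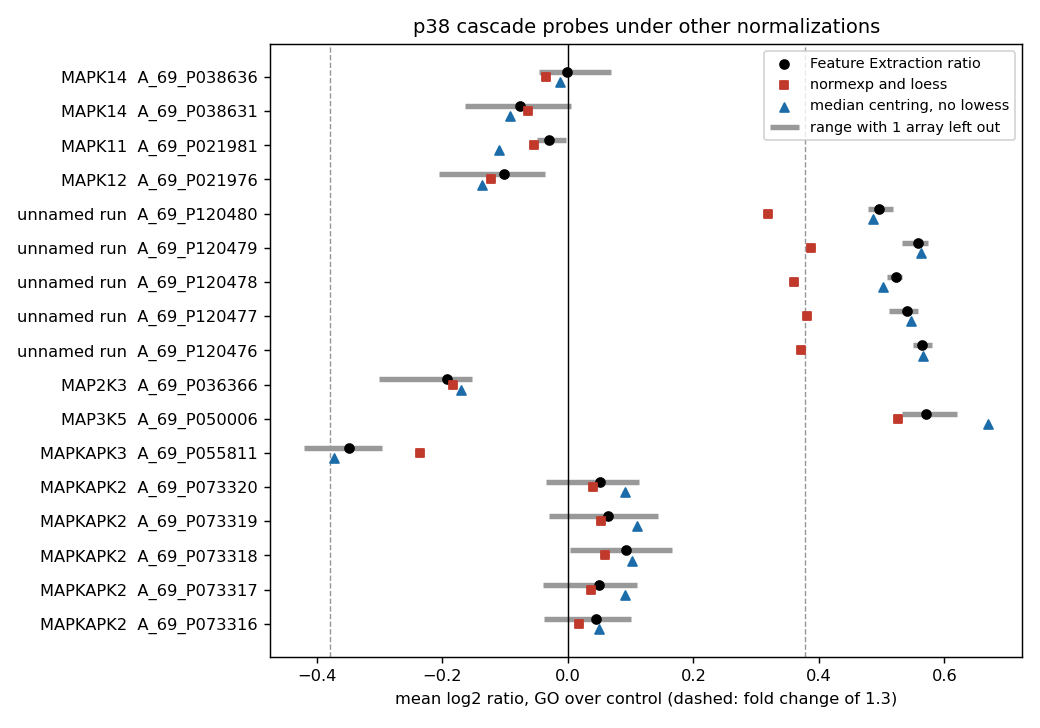
Mean log2 ratio (x axis, GO over control) of each tested probe from the Feature Extraction ratios, from normexp background correction with loess and from median centring without lowess, with the range of the first when 1 array is left out. The rise of *map3k5* stays above the dashed 1.3-fold line in all of them, while normexp with loess brings 3 of the 5 probes of the unnamed run below it.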

How the data were processed

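RNA of 4 GO-treated and 4 control samples was measured on 4 two-color Agilent horse arrays. The authors scanned them with Feature Extraction (version 10.10.1.1 in the file headers, 10.7.3.1 in the methods). The deposited log10 ratios compare Cy5 with Cy3 once background had been subtracted, trends over the slide removed and the dyes balanced (linear and lowess). Per the file headers, the deposited intensity columns hold raw, background-subtracted and processed signals. Probe positions are those of the files (EquCab1).

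Here the ratios were converted to log2, control spots (1417) and outlier spots (10 to 19 an array) were dropped, and repeated spots of 50 probes were averaged. The 26832 of 43603 probes with a signal well above background on every array, in either channel, were tested against a ratio of 0 with limma (3.58.1, R 4.3.3): an intercept, eBayes, two-sided, Benjamini-Hochberg over all probes. Its prior SD was 0.144 with 3.60 degrees of freedom, beside 3 residual. Thresholds were an adjusted p of 0.05 and a fold change of 1.3. The fit was tested on simulated data. The number of arrays, 4, limits the precision.

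The 9 genes, the gene lists and the tests were chosen with earlier results of these data known. Named genes are all members, called genes of the lists and the 5 genes nearest to *mapk14*. Others, picked after their values were seen, are those short of 1 threshold and examples of each role. Gene names came from the files, and for 2120 probes from RefSeq.

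The pairing of the channels comes from their hybridization together. Deviations from the group means correlated at 0.60, 0.86, 0.73 and 0.48 within arrays 1 to 4, and at -0.54 to 0.24 between arrays. Alternatives were other background and dye corrections, dim-probe filters, a plain one-sample test, array weights, unpaired channels, leaving out each array, and, added after seeing the data, any probe of a gene. The authors' table of normalized ratios was not used. The result of 1 gene of the substrate list is not reported here.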

Additional observations from a re-analysis of the deposited data

Results flagged for a closer look

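In 2 of 25 probes examined, 1 array stood apart from the other 3 by a gap larger than Dixon's 95% limit for 4 samples, which chance exceeds in about 1 in 20 groups. For *map2k3* it was array 1, with a log2 ratio of 0.13 against -0.31 to -0.29 on the others. For *tab2* it was array 4, with -0.15 against -0.37 to -0.35 on its brightest probe.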

How the results depend on the processing

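The count of all probes past both thresholds, 2399, was 1297 with normexp and loess, 908 without the dim-probe filter, 147 with the plain one-sample test, 794 without the replicate block (channels unpaired), and 1566 to 2430 with 1 array left out. For the probes of the cascade, 1 as reported, the count was 0 with the plain test, 2 with array weights, where *mapkapk3* passed (-0.38, adjusted p = 0.0102), and 1 to 2 with 1 array left out. For the other cascade genes, 2 as reported, it was 1 with normexp and loess, where *eef2k* lost its call, 0 without the filter, 0 with the plain test, 0 without the block, and 1 to 2 with 1 array left out. It was 3 with any probe of a gene, which adds *mef2c*, and 3 with the median over probes. Of 188 single-probe values under these alternatives, 174 kept their direction and their call by both thresholds together. In 7 of these the adjusted p alone crossed 0.05: *map2k3* without array 1 (0.0317), and *mapkapk3* without array 2, 3 or 4, without the filter, with the plain test and without the block (0.0748 to 0.296). Those that turned direction lay near 0: the *mapk14* probes, which ranged from -0.046 to 0.069 and from -0.164 to 0.0057 with 1 array left out, and 4 of the 5 *mapkapk2* probes, which ranged from -0.034 to 0.114, -0.030 to 0.144, -0.039 to 0.110 and -0.037 to 0.101. *Map3k5* lost its call with the plain test alone. In the unnamed run, A_69_P120480 (0.32), A_69_P120478 (0.36) and A_69_P120476 (0.37) fell short of the fold threshold with normexp and loess, and without the block A_69_P120480 and A_69_P120477 had adjusted p-values of 0.0615 and 0.0673. The causes were not tested.

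The 4 arrays and 1 dye orientation limit the precision. Several intervals include a 1.3-fold change, so the side of the fold threshold rests on the mean alone. Among results called, these include *eef2k*, *myog*, *des* and A_69_P120480. Among those not called, they include *map2k3*, *mapkapk3*, *gadd45a*, *tab3*, *dusp1*, *dusp10*, *mef2a* and the brightest probes of *tab2* and *mef2c*.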
